A study of Mus musculus with 14 samples.

Results

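The cell cycle genes described here encode the D cyclins (Ccnd1, Ccnd2 and Ccnd3), CIP/KIP inhibitors of cyclin-dependent kinases (Cdkn1a, Cdkn1b and Cdkn1c), the INK4 inhibitor Cdkn2c, the G cyclins (Ccng1 and Ccng2) and the phosphatase Cdc25a. They were taken by name, and every array probe set that the platform annotation assigns to 1 of these 10 genes and to no other was included. This gave 27 of the 45037 probe sets tested, from 7 for Ccnd2 to 1 each for Cdkn1c and Cdkn2c. RNA of erythroid progenitors was hybridised to Affymetrix mouse arrays. The cells were grown in SP34ex medium from the bone marrow of wild-type C57Bl/6 female mice aged 8 to 12 weeks. Stage E1 cells were depleted of Lin+ cells and selected as Kit+ CD71+ at day 3 of culture according to the deposited record, while the paper's methods give day 3.5. Stage E2 cells were depleted of both Lin+ and Kit+ cells and selected as CD71+ at day 3.5. All groups were then kept for 5.5 h without haematopoietic cytokines, and for 90 min more in the presence (4 U/mL) or absence of EPO. There were 4 EPO-challenged and 4 unchallenged arrays of stage E1 and 3 of each in stage E2.

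D cyclins bind and activate CDK4 and CDK6, which phosphorylate the retinoblastoma protein and so carry a cell through the G1 phase into DNA synthesis. INK4 proteins block CDK4 and CDK6 themselves, CIP/KIP proteins bind complexes of cyclins with their kinases, and CDC25A removes an inhibitory phosphate from the kinases. The G cyclins are unusual members of the cyclin family, and cyclin G2 is known for its high level in cells that have left the cycle. In erythroid progenitors EPO sustains survival and rapid division, and inhibitors such as p27 (Cdkn1b) accumulate when these cells later stop dividing.

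The deposited values are on a log scale whose base is not stated and was taken as 2, with 1 constant per probe set subtracted, so that differences between arrays can be read but levels cannot. Array medians lay between -0.0229 and 0.0314. The median SD between replicates was 0.0934 and 0.0729 in unchallenged and EPO-challenged E1 cells, against 0.0317 and 0.0343 in E2 cells. Kit, the receptor whose presence separates the sorted stages, differed by -3.98 log2 units (E2 minus E1) without EPO and by -3.70 with it. Of 19 marker genes of erythroid, myeloid, mast, megakaryocytic and lymphoid cells, limma called 0 with EPO in stage E1 and 0 in stage E2. Of all genes 1.52% were called in E1 and 5.61% in E2, so that 0 of 19 says little. At an unadjusted p under 0.05, 2 markers were lower and 0 higher in E1, and 4 were lower and 1 higher in E2. In bulk samples such as these, fewer cells of a type and less RNA per cell cannot be told apart. The labels call the arrays of both stages biological replicates, and nothing in them says whether arrays of a group came from separate mice. The methods call the E1 replicates independent, and the p-values measure the spread between these samples.

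The upstream sequence of the members was read from RefSeq (GRCm38.p6), where a window from 250 bases before to 50 bases after the start was found for 7 of the 10 genes, in 10 windows. Ccnd1, Ccnd2 and Cdkn1c had no window here and were not searched. Each window was searched on both strands for TTCNNNGAA (STAT factors), GTAAACA (forkhead FOXO factors), CACGTG (the E-box) and TTTCGCGC or TTTGGCGC (E2F factors). Positions below count the start as 0. The sequences of Cdc25a, Ccng2 and Cdkn1b are shown. These are the searched genes with a probe set called with EPO in both stages. Their E1 calls ended when arrays were blocked by replicate number, as given below. The E2F match is in capitals, and the other pair hold none of the motifs searched.
Cdc25a (chr9:109875329-109875628, plus strand): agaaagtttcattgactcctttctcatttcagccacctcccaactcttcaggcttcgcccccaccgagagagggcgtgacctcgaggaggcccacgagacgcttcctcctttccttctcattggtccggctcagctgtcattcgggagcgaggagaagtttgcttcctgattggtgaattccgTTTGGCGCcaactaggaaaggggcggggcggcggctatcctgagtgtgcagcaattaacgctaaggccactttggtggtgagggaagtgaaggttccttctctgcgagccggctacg
Ccng2 (chr5:93267323-93267622, plus strand): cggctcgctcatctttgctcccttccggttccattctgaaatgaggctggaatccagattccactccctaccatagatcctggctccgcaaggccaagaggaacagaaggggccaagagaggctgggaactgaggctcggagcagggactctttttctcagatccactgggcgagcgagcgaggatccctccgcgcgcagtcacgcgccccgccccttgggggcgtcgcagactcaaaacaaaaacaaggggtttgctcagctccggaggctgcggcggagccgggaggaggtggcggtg
Cdkn1b (chr6:134920151-134920450, plus strand): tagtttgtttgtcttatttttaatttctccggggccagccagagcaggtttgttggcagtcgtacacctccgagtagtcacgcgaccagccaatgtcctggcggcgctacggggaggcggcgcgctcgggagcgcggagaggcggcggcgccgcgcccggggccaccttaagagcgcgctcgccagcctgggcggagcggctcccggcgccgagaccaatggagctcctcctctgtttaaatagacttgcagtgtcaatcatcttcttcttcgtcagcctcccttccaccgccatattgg

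The Cdc25a match, TTTGGCGC, began at position -67. An E2F match stood in 0.813% of all 32851 windows. Ccnd3 held the FOXO motif at position -243 in 1 of its windows, as 3.65% of all windows did, and Cdkn2c held an E-box at position 34 in 1 of its windows, as did 7.15%. The STAT motif, present in 8.3% of all windows, matched in 0 of the 10 windows, none of which is of Ccnd2. These are matches of letters in short windows and say nothing of what binds there.

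The first question was which of these genes responded to EPO. In stage E1, 6 of the 7 probe sets of Ccnd2 and 1 of 3 of Cdc25a rose, both of Ccng2 and 1 of 2 of Cdkn1b fell, and no probe set of Ccnd1, Ccnd3, Cdkn1a, Cdkn1c, Cdkn2c or Ccng1 passed the test. Of the 27 probe sets, 7 were higher, 3 were lower and 17 did not pass (limma, two-sided, Benjamini-Hochberg adjusted p under 0.05 over all probe sets), against a background of 1.16% of all probe sets called in either direction (0.804% higher and 0.36% lower). Same-numbered E1 arrays deviated together, and blocked by replicate number 5 of the 27 were higher and 0 were lower. The calls then kept were all of Ccnd2, while those of Ccng2, Cdkn1b and Cdc25a ended. The median change was 0.12 log2 units over the 27 probe sets and -0.0047 over all. Of the 7 higher probe sets, 6 belong to Ccnd2 and so read the RNA of 1 gene. In stage E2, 6 probe sets of Ccnd2, 2 of Cdc25a and 1 of Cdkn1a rose, and both of Ccng2, the 1 of Cdkn2c and 1 each of Cdkn1b and Ccnd3 fell. Here 9 of the 27 probe sets were higher, 5 were lower and 13 did not pass, against a background of 4.62% (2.54% higher and 2.08% lower). The 5 lower became 1 without unchallenged replicate 2 or 3 or challenged replicate 1 or 2, and 3 without either of the other arrays. Groups did not overlap in 15 of the 27 probe sets in stage E1, where 5.58% of all probe sets did so, and in 20 in stage E2, where 23.1% did. Precision is limited by how few arrays there are, and the smaller spread in E2 lets smaller changes pass there.

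**Figure D1:**
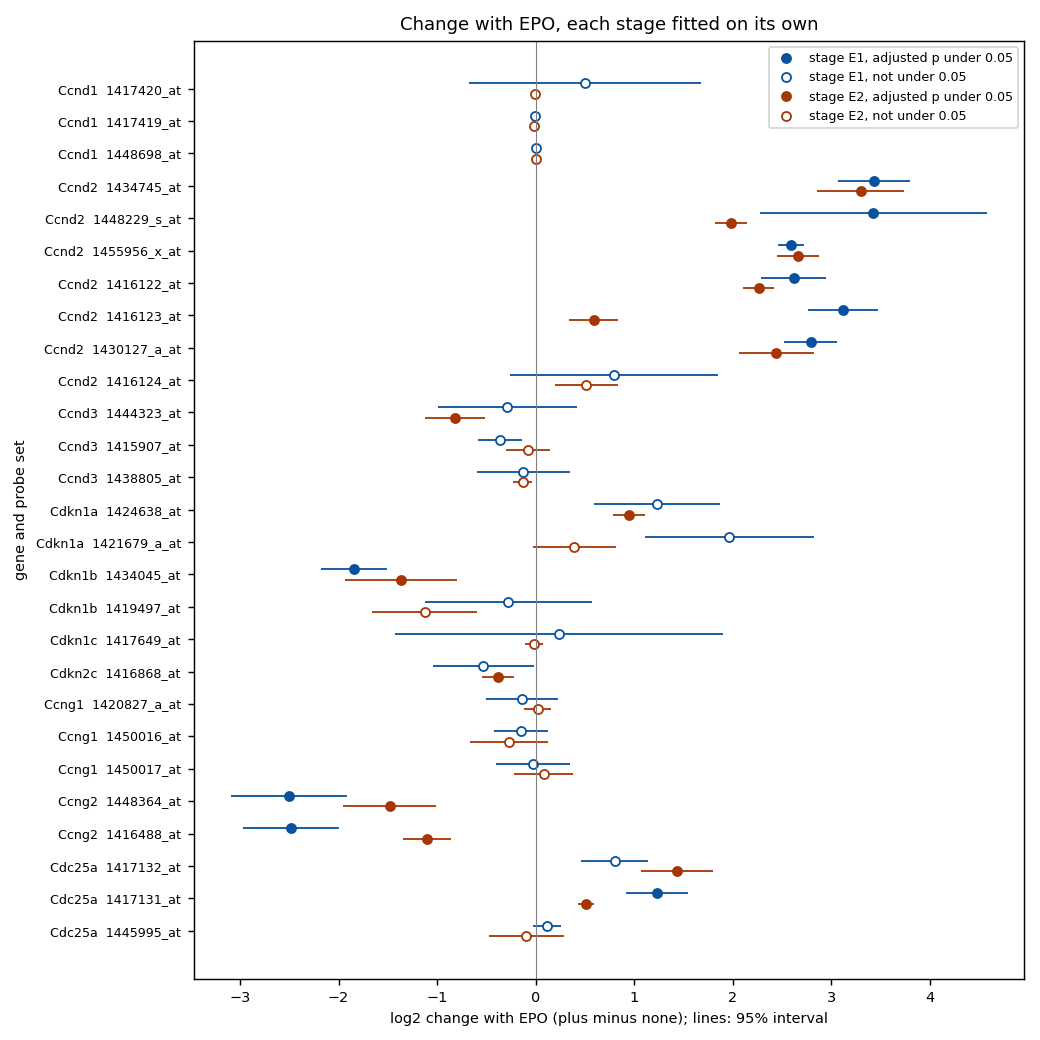
Change in log2 value with EPO (horizontal axis, EPO-challenged minus unchallenged) for each of the 27 probe sets (vertical axis), in stage E1 (blue) and stage E2 (brown), with 95% intervals as lines and filled points for an adjusted p under 0.05. The 7 Ccnd2 probe sets lie right of 0 and the 2 Ccng2 probe sets left of 0 in both stages.

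Ccnd2 encodes cyclin D2. Its lead probe set (the probe set of a gene with the largest SD over the 14 arrays), 1434745_at, read -0.45, 0.03, 0.05 and -0.03 in unchallenged E1 cells and 3.06, 3.37, 3.29 and 3.61 in EPO-challenged ones. In E2 cells it read -2.08, -1.75 and -2.30 without EPO and 1.37, 1.08 and 1.32 with it. Every EPO-challenged array stood above every unchallenged one of either stage. The rise was 3.43 log2 units in E1 (10.8-fold, SE 0.15, limma adjusted p = 0.000632) and 3.30 in E2 (9.85-fold, SE 0.17, limma adjusted p = 0.00286). All 4 group means were separated without overlap, with challenged E1 highest, then challenged E2, unchallenged E1 and unchallenged E2.

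Among the other probe sets of Ccnd2, 1455956_x_at, 1416122_at and 1430127_a_at rose by 2.59, 2.62 and 2.79 log2 units in E1 and by 2.66, 2.27 and 2.44 in E2. Their interaction of stage and EPO, the E2 change minus the E1 change, was 0.07, -0.35 and -0.35, and that of 1434745_at was -0.13 (95% interval -0.66 to 0.39). None of these 4 interactions passed the test. The sign of 3 of them, 1434745_at included, turned under quantile normalization over all 14 arrays (to 3.22 in 1434745_at), which gives E1 and E2 arrays a common spread. The probe set 1448229_s_at rose by 3.43 in E1 (SE 0.49, limma adjusted p = 0.0293) and by 1.98 in E2, with an interaction of -1.44 that did not pass (adjusted p = 0.593). Its E1 call ended when arrays were blocked by replicate number (limma adjusted p = 0.0745), and without unchallenged replicate 3 or any 1 of the 4 EPO-challenged arrays (adjusted p 0.0501 to 0.105). In 1416124_at the change was 0.80 in E1 (adjusted p = 0.813) and 0.51 in E2 (adjusted p = 0.112), and neither passed.

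The probe set 1416123_at differed from the rest of Ccnd2. It read 0.11, 0.22, -0.01 and -0.17 in unchallenged E1 cells and 2.87, 3.43, 2.99 and 3.33 in challenged ones. In E2 cells its values were -0.44, -0.58 and -0.37 without EPO and 0.25, -0.04 and 0.17 with it. Groups did not overlap within either stage, but challenged E2 arrays overlapped unchallenged E1 arrays. The rise was 3.12 log2 units in E1 (8.68-fold, SE 0.15, limma adjusted p = 0.000788) and 0.59 in E2 (1.5-fold, SE 0.10, limma adjusted p = 0.0462). The E2 call ended without any 1 of the 3 unchallenged arrays or EPO-challenged replicate 1 or 3 (limma adjusted p 0.0991 to 0.139). The difference between these rises was -2.53 (SE 0.20, limma adjusted p = 0.000383), and it was the only interaction of the 27 probe sets to pass, where 0.415% of all probe sets did (0.18% higher and 0.235% lower). No interaction of a member passed in the upward direction (3 were higher and 4 lower at an unadjusted p under 0.05). That interaction remained past the test in all 21 alternative settings tried, with adjusted p from 6.89e-05 to 0.0292. Since levels cannot be read, whether 1416123_at was near background in any group is unknown here. Over the 14 arrays, the 21 pairs of Ccnd2 probe sets correlated between 0.628 and 0.994 with a median of 0.935, a description in which all pairs share the same arrays.

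**Figure D2:**
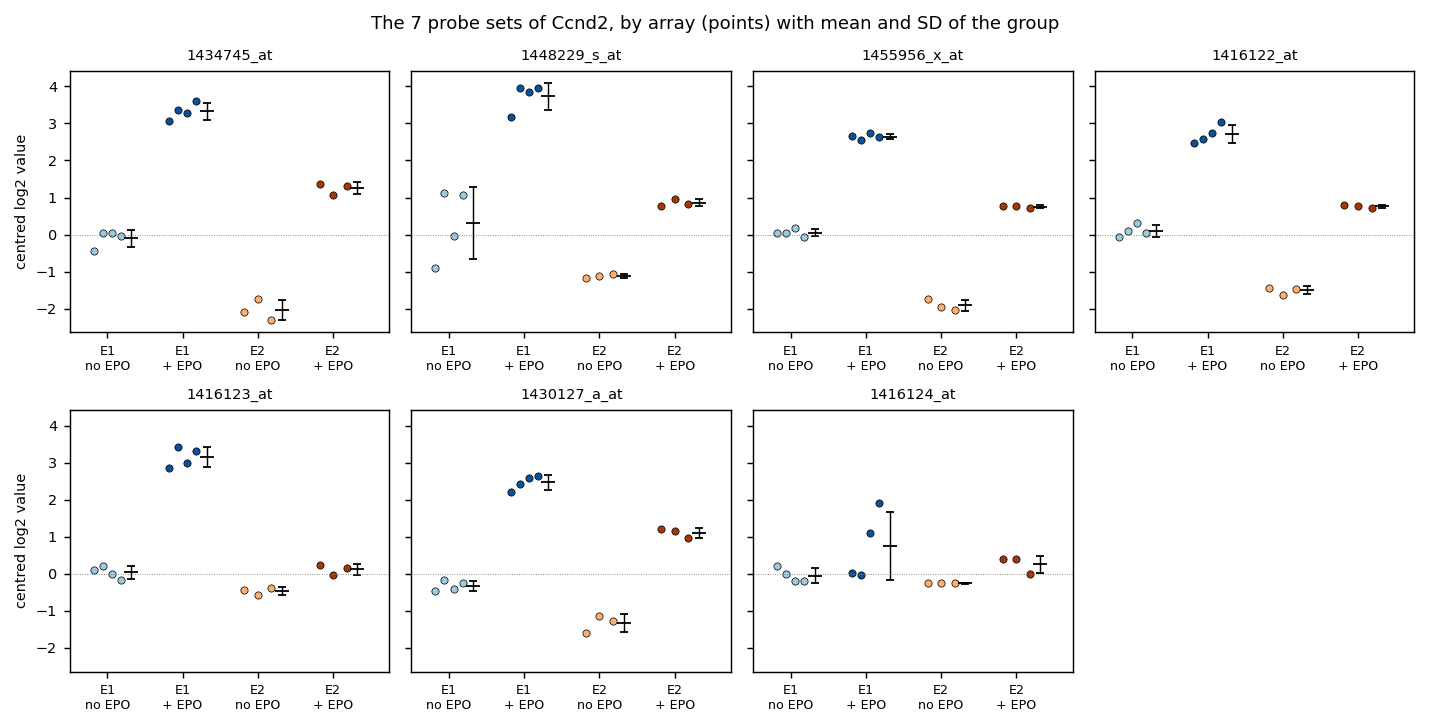
Centred log2 value (vertical axis) of the 7 Ccnd2 probe sets in the 4 groups (horizontal axis), 1 point per array, with the group mean and SD as a bar beside the points. In 1416123_at the 3 challenged E2 arrays lie between -0.04 and 0.25, while those of 1434745_at lie between 1.08 and 1.37.

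Ccng2 encodes cyclin G2. Its lead probe set, 1448364_at, read -0.04, 0.04, -0.38 and -0.10 in unchallenged E1 cells and -2.89, -2.27, -3.18 and -2.15 with EPO. In E2 cells it read 0.21, 0.35 and 0.35 without EPO and -0.94, -1.03 and -1.56 with it. The groups did not overlap in either stage. The gene fell by 2.50 log2 units in E1 (5.66-fold, SE 0.25, limma adjusted p = 0.00837, and 0.0642 blocked by replicate number). In E2 it fell by 1.48 (2.79-fold, SE 0.18, limma adjusted p = 0.0227), and this call ended without any 1 of the 3 unchallenged arrays or challenged replicate 1 or 2 (adjusted p 0.0511 to 0.0952). The other probe set, 1416488_at, fell by 2.49 in E1 (limma adjusted p = 0.00435, and 0.0533 with the block) and by 1.10 in E2 (adjusted p = 0.00982). The falls of both were smaller in E2, by 1.02 and 1.38 log2 units, but neither difference passed the test (limma adjusted p = 0.393 and 0.0565). Under quantile normalization over all 14 arrays these differences turned to -1.25 and -0.56. The latter difference passed, at 1.51 in each case, without unchallenged E1 replicate 2 or challenged E1 replicate 1. Ccng1, its relative and a known target of p53, had changes with EPO between -0.27 and 0.08 log2 units in its 3 probe sets over both stages, and none passed.

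Cdkn1b encodes p27. Its lead probe set, 1434045_at, read -0.32, -0.32, -0.42 and -0.18 in unchallenged E1 cells and -2.45, -1.77, -2.13 and -2.24 with EPO. E2 cells gave 1.76, 1.20 and 0.98 without EPO and -0.15, -0.03 and 0.03 with it. It fell by 1.84 log2 units in E1 (3.58-fold, SE 0.14, limma adjusted p = 0.00364, and 0.0677 blocked by replicate number). The fall in E2 was 1.37 log2 units (2.58-fold, SE 0.22, limma adjusted p = 0.0427), and this call ended without unchallenged replicate 2 or 3 or any 1 of the 3 challenged arrays (adjusted p 0.0598 to 0.136). All 4 groups stood apart, in the order unchallenged E2, challenged E2, unchallenged E1 and challenged E1. The other probe set, 1419497_at, changed by -0.28 in E1 (SE 0.36, adjusted p = 1) with overlapping groups, and by -1.13 in E2 (SE 0.20, limma adjusted p = 0.0581) with groups apart, and neither passed. The probe sets correlated at 0.686 over the 14 arrays.

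Cdc25a encodes a phosphatase that activates CDK2 and CDK4 complexes. Its lead probe set, 1417132_at, read 0.01, -0.12, -0.11 and 0.13 in unchallenged and 0.95, 1.07, 0.62 and 0.48 in challenged E1 cells. In E2 cells it read -0.26, -0.01 and 0.02 without EPO and 1.31, 1.17 and 1.58 with it. The change was 0.80 log2 units in E1 (SE 0.14, limma adjusted p = 0.0615) and did not pass, and the rise was 1.44 in E2 (2.71-fold, SE 0.14, limma adjusted p = 0.0129). The E2 call ended without unchallenged replicate 2 or challenged replicate 1 (adjusted p 0.0532 to 0.0577). The probe set 1417131_at gave the opposite order of sizes. It read -0.01, -0.14, -0.53 and -0.37 and then 0.91, 1.16, 0.79 and 1.01 in E1, and 0.08, 0.11 and 0.01 and then 0.57, 0.56 and 0.60 in E2. Its rise was 1.23 in E1 (2.34-fold, SE 0.13, limma adjusted p = 0.0117, and 0.0677 with the block) and 0.51 in E2 (1.42-fold, SE 0.03, limma adjusted p = 0.00374, and 0.0652 in a fit of all 14 arrays). The interaction was 0.63 in the former probe set and -0.72 in the latter, and neither passed (limma adjusted p = 0.394 and 0.118). The third probe set, 1445995_at, changed by 0.12 in E1 and -0.10 in E2, and neither passed.

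**Figure D3:**
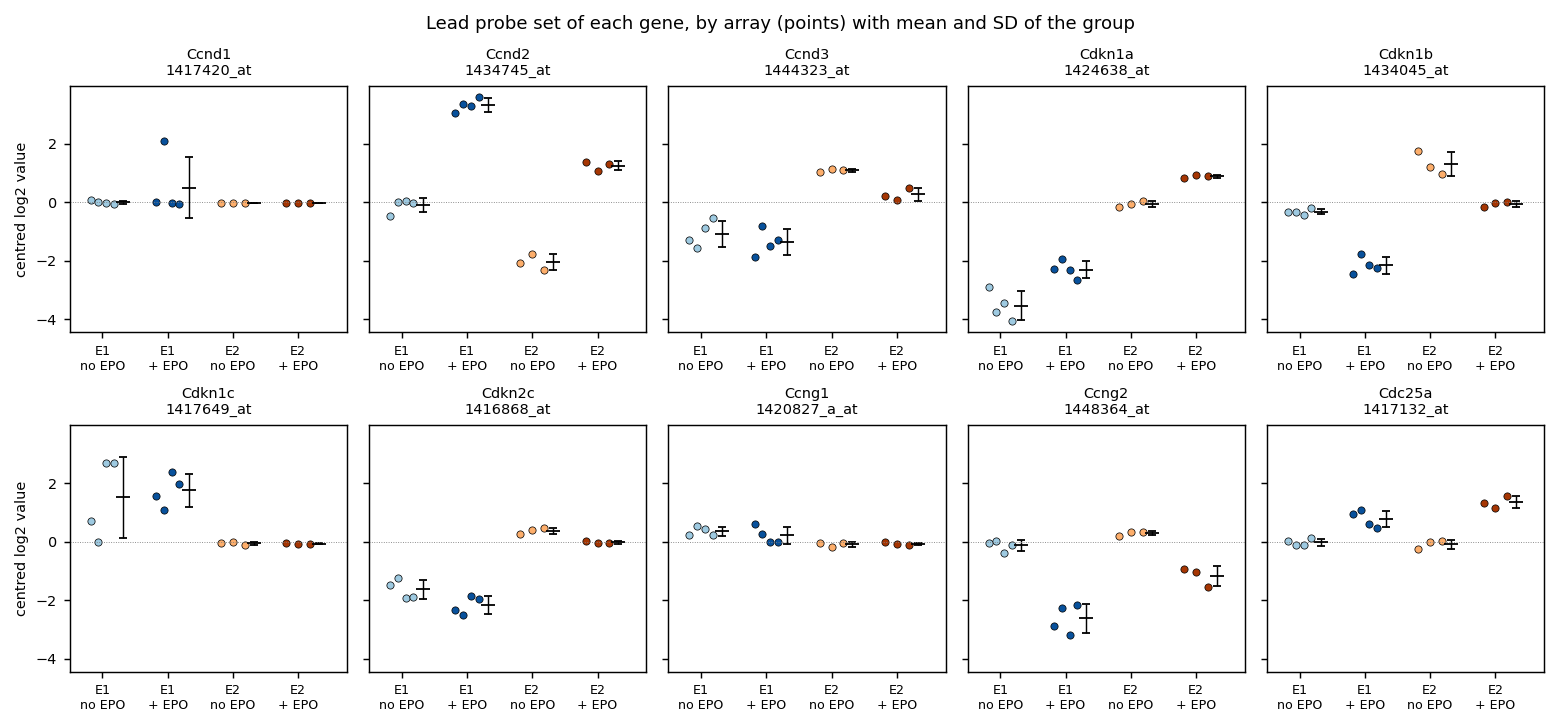
Centred log2 value (vertical axis) of the lead probe set of each of the 10 genes in the 4 groups (horizontal axis), 1 point per array, with the group mean and SD as a bar beside the points. The scale is shared for differences within a gene only, since each probe set has its own subtracted constant. Ccnd2 stands higher and Ccng2 and Cdkn1b stand lower on every challenged array than on the unchallenged arrays of the same stage.

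Cdkn1a encodes p21, an inhibitor induced by p53. Its lead probe set, 1424638_at, read -2.89, -3.74, -3.44 and -4.06 in unchallenged E1 cells and -2.27, -1.95, -2.32 and -2.66 with EPO. In E2 cells its values were -0.16, -0.05 and 0.05 without EPO and 0.85, 0.94 and 0.90 with it. No group overlapped another. The rise in E2 was 0.95 log2 units (1.93-fold, SE 0.06, limma adjusted p = 0.00478, and 0.101 in a fit of all 14 arrays). The change of 1.23 in E1 did not pass (SE 0.27, limma adjusted p = 0.123), nor did the interaction of -0.28 (adjusted p = 1). The other probe set, 1421679_a_at, changed by 1.97 in E1 (SE 0.36, limma adjusted p = 0.0718) and by 0.39 in E2 (adjusted p = 0.344), and neither passed although its groups were apart in both stages. Its E1 change did pass without unchallenged replicate 1, which read -4.54 where the other unchallenged arrays read -3.48 to -2.92 (1.62 log2 units, limma adjusted p = 0.0337). Both probe sets passed in E1 in the fit of all 14 arrays (limma adjusted p = 0.00886 and 0.00377).

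Cdkn2c encodes p18, an INK4 inhibitor. It read -1.47, -1.23, -1.92 and -1.90 in unchallenged and -2.34, -2.50, -1.84 and -1.95 in challenged E1 cells, with overlap. The E2 values were 0.25, 0.39 and 0.46 without EPO and 0.04, -0.05 and -0.04 with it. The fall in E2 was 0.38 log2 units (1.30-fold, SE 0.06, limma adjusted p = 0.0449), and it ended as a call without unchallenged replicate 2 or 3 or any 1 of the challenged arrays (adjusted p 0.0974 to 0.154). In E1 the change was -0.53 (SE 0.22, limma adjusted p = 0.532). Cdkn1c, which encodes p57, did not pass in either stage and varied widely between E1 arrays. It read 0.72, -0.02, 2.68 and 2.69 without EPO and 1.56, 1.09, 2.40 and 1.97 with it, against -0.12 to 0.00 in the 6 E2 arrays.

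Of the other D cyclins, Ccnd3 fell with EPO in E2 in its lead probe set 1444323_at, from 1.03, 1.14 and 1.12 to 0.23, 0.09 and 0.51. That was a fall of 0.82 log2 units (1.76-fold, SE 0.12, limma adjusted p = 0.0331). The call ended without any 1 of the unchallenged arrays or challenged replicate 1 or 2 (adjusted p 0.0649 to 0.124). The probe set 1415907_at of the same gene changed by -0.08 in E2 (adjusted p = 0.747) and by -0.36 in E1 (adjusted p = 0.205), and neither passed. Ccnd1 showed little difference between arrays. Its 3 probe sets lay between -0.05 and 0.08 on every array but 1, challenged E1 replicate 2, which read 2.09 in 1417420_at.

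The second question was how the genes differ between the stages. Without EPO, both probe sets of Cdkn1a, 2 of 3 of Ccnd3, the 1 of Cdkn2c and 1 of 2 of Cdkn1b were higher in E2 than in E1, and 6 of 7 of Ccnd2 and 1 of 3 of Ccng1 were lower. Of the 27 probe sets, 6 were higher in E2, 7 were lower and 14 did not pass, against a background of 20.9% of all probe sets called (10.1% higher and 10.8% lower). With EPO, 9 were higher, 7 were lower and 11 did not pass, against 22.3% (10.3% higher and 12% lower). Groups did not overlap in 18 of the 27 without EPO, where 51% of all probe sets did so, and in 20 with EPO, where 59.5% did. Both comparisons come from 1 fit of the 14 arrays, in which the stages share an estimate of spread although E1 arrays varied more. They use the same arrays as the EPO comparisons and are not independent of them. Stage and preparation cannot be told apart, because the stages were isolated by different selections and, in the record, on different days.

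Of the lead probe sets of the members, that of Cdkn1a differed most between the stages under both conditions. Without EPO, E2 exceeded E1 by 3.48 log2 units in 1424638_at (11.1-fold, SE 0.23, limma adjusted p = 1.47e-06) and by 3.44 in 1421679_a_at. With EPO the differences were 3.20 (9.16-fold) and 1.87 (3.65-fold). Cdkn2c was higher in E2 by 2.0 without EPO (3.99-fold, SE 0.19, limma adjusted p = 1.71e-05) and by 2.14 with it. Cdkn1b was higher in 1434045_at by 1.63 (3.09-fold, SE 0.18, limma adjusted p = 5.95e-05) and by 2.10. In 1419497_at it differed by 0.99 and 0.14, neither past the test (adjusted p = 0.0567 and 0.751). Thus 3 of the 4 inhibitor genes were higher in E2 in their lead probe sets under both conditions, where 13.4% of all genes were higher without EPO and 13.2% with it. Cdkn1c had the opposite sign, with -1.57 and -1.83 log2 units (SE 0.60), and did not pass (limma adjusted p = 0.0898 and 0.0503). The comparison without EPO rests on E1 arrays from -0.02 to 2.69, and it passed without E1 replicate 2, which read -0.02 (-2.09, limma adjusted p = 0.0123).

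Among the D cyclins the directions were opposed. Ccnd2 was lower in E2 in 6 of its 7 probe sets without EPO, by 0.50 to 1.96 log2 units, and in the same 6 with EPO, by 1.36 to 3.03. With EPO, the call of 1430127_a_at ended under quantile normalization over all 14 arrays (limma adjusted p = 0.695). In the lead probe set the differences were -1.94 (SE 0.17, limma adjusted p = 8.98e-06) and -2.08 (adjusted p = 4.9e-06). The call without EPO ended for 1416123_at without E1 replicate 1 or 2 or E2 replicate 1 or 2 (adjusted p 0.06 to 0.109). It also ended for 1448229_s_at without E1 replicate 2 or 4 or any 1 of the E2 arrays (0.0703 to 0.0927). Ccnd3 was higher in E2 by 2.17 in 1444323_at (4.50-fold, SE 0.27, limma adjusted p = 0.000118) and by 1.76 in 1415907_at, and with EPO by 1.64 and 2.03. Its E2 arrays all stood above its E1 arrays in these probe sets. The third Ccnd3 probe set, 1438805_at, and the 3 of Ccnd1 did not pass in either condition.

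Ccng2 differed between the stages only with EPO as far as the test shows, by 1.44 in 1448364_at (2.72-fold, SE 0.24, limma adjusted p = 0.00101) and by 1.73 in 1416488_at. Without EPO the differences were 0.42 and 0.34 and did not pass (adjusted p = 0.22 and 0.201), and the change of this difference with EPO is the interaction given above, which did not pass. Quantile normalization over all 14 arrays turned the differences with EPO to -0.63 and -0.11, and both calls were kept in 13 of 14 settings. That normalization forces a common spread on E1 and E2 arrays. On values with a constant subtracted per probe set it cannot decide the direction. Cdc25a with EPO was 0.57 higher in E2 in 1417132_at (limma adjusted p = 0.0162) and 0.39 lower in 1417131_at (adjusted p = 0.0309). The former call ended without challenged E2 replicate 3 (0.0823), and the latter without challenged E1 replicate 2 or 4 or any 1 of the challenged E2 arrays (0.065 to 0.0869). The latter value turned to 0.24 under quantile normalization. Ccng1 was 0.45 lower in E2 without EPO in 1420827_a_at (SE 0.14, limma adjusted p = 0.0386). This call ended without E1 replicate 2 or 3 or any 1 of the E2 arrays (0.0718 to 0.139). Its probe set 1450016_at had the opposite sign, 0.37 with groups apart (limma adjusted p = 0.0835). In 1450017_at the difference was -0.21 (adjusted p = 0.313), and neither passed.

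**Figure D4:**
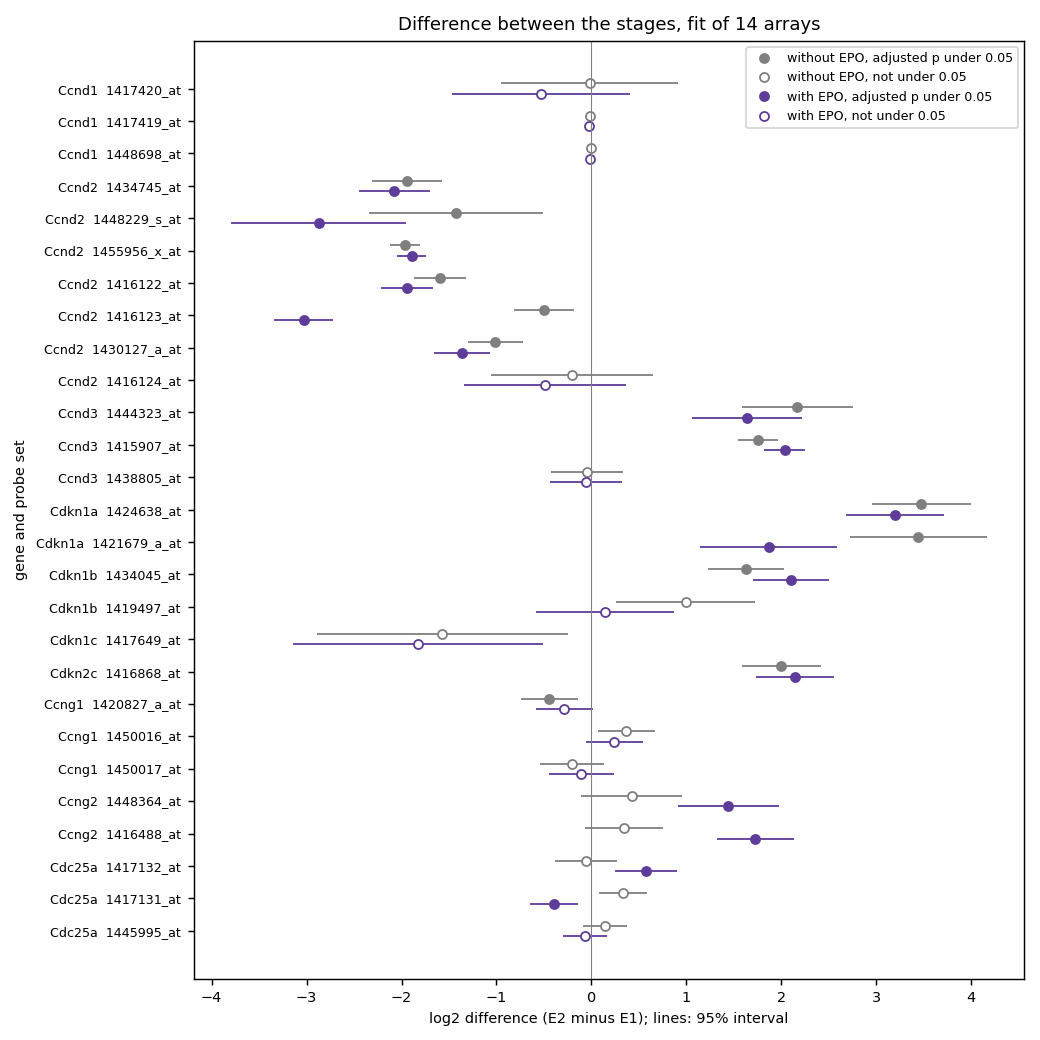
Log2 difference between the stages (horizontal axis, E2 minus E1) for each of the 27 probe sets (vertical axis), without EPO (grey) and with EPO (purple), with 95% intervals as lines and filled points for an adjusted p under 0.05. Both Cdkn1a probe sets lie right of 0 and 6 of the 7 Ccnd2 probe sets lie left of 0 with intervals that leave out 0 in both conditions.

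Markers of other cells also differed between the stages, and their part in the stage differences above was not tested. Of 4 myeloid markers 3 were lower in E2 in both conditions, and both mast cell markers were too, where 13.8% of all genes were lower without EPO and 15% with it. Mpo, the myeloperoxidase of granulocyte precursors, differed by -9.47 log2 units (E2 minus E1) without EPO and by -9.29 with it. On single arrays it ranged from 9.06 to 9.88 in the 8 E1 arrays and from -0.08 to -0.01 in the 6 E2 arrays. Elane, neutrophil elastase, differed by -7.01 and -6.77, and Cpa3, a mast cell carboxypeptidase, by -3.99 and -3.59. All 3 megakaryocyte markers were higher in E2, as 13.4% and 13.2% of all genes were, with Pf4 by 1.70 and 1.96. Among 6 erythroid markers, 4 were higher and 1, Kit, was lower without EPO, and 3 were higher and Kit was lower with EPO. B and T cell markers gave 0 calls of 4 in each. Since levels cannot be read, whether any of these markers was at background in a group is unknown here.

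Other cell cycle genes, most of them of G1 and some of S phase or mitosis, were taken from a list of 46, of which 44 were measured. With EPO in E1, 2 rose and 0 fell (5 were lower at an unadjusted p under 0.05), against a background of 1.52% of genes called through lead probe sets (1.13% higher and 0.396% lower). They were Myc, a growth-promoting transcription factor (2.59 log2 units, 6.02-fold, limma adjusted p = 0.00852), and Ccnb1ip1, a ubiquitin ligase that binds cyclin B1 (1.56, 2.94-fold, adjusted p = 0.0125). Blocked by replicate number, 0 of the 44 were higher. In E2, 6 rose and 1 fell, against 5.61% (3.19% higher and 2.42% lower). Myc rose by 3.35 (10.2-fold, limma adjusted p = 0.000368), Fbxw7, which marks cyclin E for degradation, by 1.5 (2.83-fold), Cdkn2b, which encodes the INK4 inhibitor p15, by 0.72, and Tfdp1, a partner of E2F factors, by 0.25. Foxo3, a forkhead factor that acts on Cdkn1b and Ccng2, fell by 0.56 (1.47-fold, limma adjusted p = 0.00275). In E1, Fbxw7 changed by 1.57 (limma adjusted p = 0.0779) and Tfdp1 by 0.43 (adjusted p = 0.23), with groups apart, and neither passed. Cdkn2b (0.12) and Foxo3 (-0.47) did not pass in E1 either, with overlapping groups. Myc, Fbxw7, Tfdp1, Cdkn2b and Foxo3 had no interaction of stage and EPO that passed, and that of Ccnb1ip1 is given below.

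Between the stages, 21 of these 44 genes were higher in E2 and 8 lower without EPO, against a background of 27.2% of genes (13.4% higher and 13.8% lower), and 23 were higher and 8 lower with EPO, against 28.2% (13.2% higher and 15% lower). The median difference was 0.55 and 0.73 log2 units, and -0.03 over all genes in both. Of 13 pocket protein, E2F and DP genes, 8 were higher and 0 lower without EPO, and 9 were higher and 0 lower with it. Among them Tfdp2, a partner of E2F factors, was higher by 2.10 and 2.26, and E2f2 by 2.80 and 2.95. Most G1 kinases and their activators went the other way, with 5 of 6 lower and 1, Cdk2, higher in both conditions. The kinase gene Cdk6, a partner of the D cyclins, differed by -3.36 and -3.52 (10.3-fold and 11.5-fold lower). The phosphatase gene Cdc25b was 3.27 and 4.04 higher, the INK4 gene Cdkn2d was 2.67 and 3.20 higher, and Ccnb1ip1 differed by -4.70 and -6.25. The EPO change of Ccnb1ip1 also differed between stages (-1.55, limma adjusted p = 0.0126), the 1 interaction of the 44 to pass and 0 when blocked by replicate number, against 0.489% of genes (0.198% higher and 0.291% lower). Its mean was 4.62 without and 6.17 with EPO in E1, and -0.08 in both E2 groups (SD 0.01 and 0.02). Whether it was at background in E2, where no change could show, is unknown here.

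For 4 members the genes with the most similar pattern over the 14 arrays were listed, as a description without a test. The lead probe set of Ccnd2 was followed most closely by Eif1a (r = 0.988), Rrs1 (0.988) and Alkbh1 (0.986). Those of Ccng2 were Tsc22d1 (0.961), Btrc (0.949) and Tut7 (0.939). Cdkn1b stood closest to Slc25a51 (0.985), Cenpk (0.978) and Aspm (0.97), and Cdc25a to Socs3 (0.956), Gm5544 (0.954) and Fitm2 (0.95). All these correlations share the same 4 groups of arrays.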

How the data were processed

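The deposited log2 values are GC-RMA signals that the authors obtained with GCOS and GeneSpring GX (the base is not stated and was taken as 2). From each probe set 1 constant had been subtracted, and the median over these 14 arrays is 0 in only 0.973% of probe sets. Of 45101 probe sets, 64 controls were left out. Groups and replicate numbers came from the record.

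EPO comparisons were fitted per stage, and the interaction and stage comparisons on all 14 arrays, with the moderated test of limma (version 3.58.1, under R 4.3.3), Benjamini-Hochberg adjustment and a threshold of 0.05. The lead probe set is chosen by an SD that includes the change with EPO. Fits were tested on simulated data, where calls of unchanged probe sets exceeded the threshold's share, most in the stage comparisons. Members, lists, named genes (every member probe set; up to 5 listed genes per comparison by p; 3 most alike genes for 4 members) and motifs were chosen with earlier results of these data known.

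Same-numbered E1 arrays deviated from their group means together (r = 0.195, 0.187, 0.173 and 0.152). There was 1 exception, unchallenged replicate 4, whose highest correlation, 0.203, was with challenged replicate 3. The numbers were therefore taken to pair E1 arrays in the replicate block, while the main fits left all arrays unpaired. E2 arrays of the same number did not deviate together (-0.0609, -0.0567 and -0.0155). Alternatives were quantile normalization, median centring, the methods' t-test, the replicate block, other samples in the fit, limma's trend, robust and array weight options, a filter on SD, means of probe sets and each array left out. Quantile normalization within each stage was added after seeing the data.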

Additional observations from a re-analysis of the deposited data

Results flagged for a closer look

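In groups of 4 arrays, 1 array stood far from the others in 4 of the 54 groups and probe sets examined, where chance gives about 5% of groups. For Ccnd1 1417420_at in EPO-challenged E1 cells, replicate 2 read 2.09 and the others -0.05 to 0.01 (a gap of 0.973 of the range). For Ccnd1 1417419_at in unchallenged E1 cells, replicate 1 read 0.05 and the others -0.01 to 0.00 (0.871 of a narrow range). For Ccnd2 1434745_at in unchallenged E1 cells, replicate 1 read -0.45 and the others -0.03 to 0.05 (0.851). For Ccnd2 1448229_s_at in challenged E1 cells, replicate 1 read 3.18 and the others 3.84 to 3.96 (0.848). The change of Ccnd2 1416123_at with EPO differed between the stages by -2.53 log2 units in the tested interaction.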

How the results depend on the processing

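Of the 54 calls of member probe sets, 42 were kept whichever single array was left out. In no setting tried did 32 of them fail the test with an unchanged sign. These 32 include both Ccng2 stage calls with EPO, which were not kept under quantile normalization over all 14 arrays. Their sign turned there and they did not pass (limma adjusted p = 0.745 and 0.14). Counted in the same way, these were 5 of 10 calls with EPO in E1, 3 of 14 in E2 and the 1 interaction. Of the stage calls they were 13 of 16 with EPO, both of Ccng2 included, and 10 of 13 without. The cause of the changes below was not tested, except that quantile normalization over all 14 arrays by its construction gives E1 arrays (SD 0.633 to 0.736) and E2 arrays (SD 0.259 to 0.295) a common distribution. Quantile normalization within each stage, chosen after seeing the data, turned none of the interactions, and Cdkn1a 1421679_a_at passed in E1 under it (limma adjusted p = 0.045).

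The count of 3 member probe sets lower with EPO in E1 became 5 in the methods' t-test unadjusted and 0 with the replicate block. The count of 5 lower in E2 became 3 in the fit of all 14 arrays, 3 in the methods' t-test after Benjamini-Hochberg adjustment, 8 in it unadjusted, 0 with the replicate block, and 1 to 3 without single arrays. The 9 higher in E2 became 4 with the replicate block, although the E2 arrays share only a number. The block kept 4 of 14 calls there. The E1 block kept 5 of 10 calls, and blocks within each stage kept 1 of 1 interaction. Blocks by number across the stages kept 15 of 16 stage calls with EPO and 12 of 13 without. Arrays of different stages share only a number too, so that block says little about those calls. Interactions higher, 0 in all, became 1 with array weights, 1 among probe sets with the largest SD, 5 with quantile normalization and 0 to 1 without single arrays (1 without E1 unchallenged replicate 2 or challenged replicate 1). Interactions lower, 1 in all, became 3 with array weights and 3 with quantile normalization. The 7 lower in E2 without EPO became 4 to 6 without single arrays.

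Signs turned as follows, in log2 units. Quantile normalization gave interactions of 2.41, 0.47, 2.58, 3.22 and 1.37 for Ccnd2 1416122_at, 1416124_at, 1430127_a_at, 1434745_at and 1448229_s_at. It gave -0.056 for Ccnd3 1415907_at, -0.56 and -1.25 for Ccng2 1416488_at and 1448364_at, 0.61 for Cdkn1a 1424638_at, -1.11 for Cdkn1b 1434045_at and -0.25 for Cdkn2c. With EPO it gave stage differences of -0.11 and -0.63 for Ccng2 1416488_at and 1448364_at, 0.24 for Cdc25a 1417131_at and -0.69 for Cdkn1b 1419497_at. It gave 0.046 for Cdkn1c with EPO in E2. For Ccnd1 1417420_at the stage difference without EPO was 0.0127 under it, 0.009 with array weights and 0.0008 with median centring. Array weights gave -0.0077 for Cdkn1c with EPO in E1 and -0.15 for the Cdkn2c interaction.

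Without single arrays, the EPO change in E1 ran from -0.0237 to 0.69 for Ccnd1 1417420_at and from -0.274 to 0.63 for Cdkn1c. In E2 it ran from -0.0297 to 0.0481 for Ccng1 1420827_a_at and from -0.048 to 0.0126 for Cdkn1c. The interaction ran from -0.70 to 0.0184 for Ccnd1 1417420_at, from -0.54 to 0.10 for Ccnd2 1416124_at, from -0.26 to 0.0159 for Ccnd2 1434745_at and from -0.65 to 0.26 for Cdkn1c. The stage difference ran from -0.10 to 0.34 for Cdkn1b 1419497_at with EPO, and without EPO from -0.0365 to 0.0031 for Ccnd1 1417420_at and from -0.11 to 0.0319 for Cdc25a 1417132_at.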
